A study of Homo sapiens with 15 samples.

Results

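CDC20, FZR1, UBE2C, UBE2S, PTTG1, ESPL1, FBXO5 and CDC23 are 8 genes around the anaphase-promoting complex (APC/C), and they were taken by their gene symbol from the table of raw read counts of 22447 genes. All 8 passed the filter on low counts, as did 12719 genes in total. The counts come from RNA-seq of U251, an established human glioblastoma line with the genotype given as WT, exposed to X-rays. The 5 groups of 3 libraries each were the unirradiated control, 1 Gy at 6 h, 1 Gy at 24 h, 6 Gy at 6 h and 6 Gy at 24 h. The control is labelled 0 h but was harvested with the 24 h cells, 18 h later than the 6 h groups. Time in culture and irradiation therefore cannot be told apart in the comparisons of the 6 h groups with it. The comparisons of 24 h with 6 h also mix time in culture with time since irradiation, as there was no unirradiated 6 h group. All groups are cells of a single line grown in the same medium, and the libraries, called biological replicates in the methods, are numbered I to III.

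The APC/C is a ubiquitin ligase that marks proteins for destruction at the exit from mitosis and during G1. CDC20 activates it at the start of anaphase and FZR1 (also called CDH1) activates it later and through G1; UBE2C starts the ubiquitin chains and UBE2S extends them, while FBXO5 (EMI1) inhibits the ligase during S and G2 phase. PTTG1 encodes securin, which holds the protease separase (ESPL1) inactive until the APC/C removes it, after which separase cuts the cohesin that joins sister chromatids, and CDC23 is a constant subunit of the ligase. Transcripts of several of these genes are known to rise and fall with the cell cycle, being highest around G2 and mitosis.

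The libraries held 8691338 to 11719631 counts, and the log2 CPM (counts per 1000000 counts of the library) of libraries of the same group correlated at 0.987 to 0.994. The study's own comparisons left out control replicate 3 and 1 Gy 6 h replicate 2, and the tests here did the same and used 13 libraries, whereas the levels below are given for all 15. Of 12 glioblastoma and glial markers 9 reached a mean of 1 CPM. VIM (1370 to 1920 CPM), NES, SOX2, EGFR and CD44 were among those present in every library. GFAP stood at only 2.85 to 4.58 CPM and S100B at 0.989 to 3.36 CPM. OLIG2 stood at 0, CHI3L1 at 0 to 0.415 CPM and AQP4 at 0 to 0.104 CPM. Of 6 blood cell markers 0 reached a mean of 1 CPM. Of 6 epithelial markers 4 did, with KRT8 at 52.5 to 85.7 and KRT18 at 73.9 to 102 CPM and EPCAM at 0, as did 4 of 7 endothelial and fibroblast markers (COL1A2 at 378 to 574 CPM, PECAM1 at 0) and 5 of 6 neuronal markers (NEFL at 144 to 275 CPM). The summed neuronal markers differed between groups, with 237 to 241 CPM in the control, 199 to 211 at 6 h and 260 to 277 at 24 h after 6 Gy, and 223 to 230 at 6 h and 316 to 333 at 24 h after 1 Gy. The endothelial and fibroblast sum was 472 to 511 CPM in the control, 412 to 448 and 584 to 641 CPM at 6 h and 24 h after 6 Gy, and 411 to 472 and 540 to 619 CPM after 1 Gy, while the epithelial sum stayed between 135 and 177 CPM. The part of these lists in the results below was not tested.

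Per kilobase of exon, the 8 genes formed an abundant and a scarce set in the control cells. UBE2S stood at 436 ± 41.7 CPM per kb (SD, n = 3), UBE2C at 356 ± 19.9, CDC20 at 281 ± 26.8 and PTTG1 at 186 ± 12.6. FZR1 stood at 33.4 ± 1.14 CPM per kb, FBXO5 at 32.7 ± 0.813, CDC23 at 28.5 ± 0.998 and ESPL1 at 20.5 ± 0.649. On the scale of level per length, RNA of the mitotic activator CDC20 was thus well above that of the G1 activator FZR1. Likewise, RNA of securin was well above that of separase, the protease it holds. The order of FZR1 and FBXO5 was within the spread of the libraries. The places of UBE2S and FZR1 rest on the length used, since the span in the count table covers 1022 of 2559 and 3601 of 5178 bases of their transcripts. Over the full transcripts, an alternative chosen after seeing the data, UBE2S would stand at 174 ± 16.7 CPM per kb, within the spread of PTTG1, and FZR1 at 23.2 ± 0.796, below FBXO5 and CDC23. In the coordinates of the count table, which are on hg19, CDC20 lies on chromosome 1 at 43824626 to 43828873, PTTG1 on chromosome 5 at 159848814 to 159855751, UBE2C on chromosome 20 at 44441215 to 44445596 and ESPL1 on chromosome 12 at 53662083 to 53687427. PTTG2 and PTTG3P, the near copies of PTTG1, held 0 and at most 2 counts in any library. CDC23 overlaps KIF20A, on the opposite strand, by 68 bases, and reads there cannot be assigned with certainty because the sources do not state whether counting used strand. The deposited counts of the 8 genes ranged from 540 (FBXO5) to 5589 (CDC20) per library.

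The promoters of 3 genes that passed the test and of FBXO5, which did not, show where letters that cell cycle factors are known to bind lie in front of the transcription start. PTTG1 is shown at the earlier of its 2 listed starts, which hold the same matches. The stretches run from 200 to 26 bases before the start and come from RefSeq on GRCh38.p14, at chr1:43358781-43358955 on the plus strand for CDC20, chr5:160421655-160421829 on the plus strand for PTTG1, chr12:53268099-53268273 on the plus strand for ESPL1 and chr6:152983067-152983241 on the minus strand for FBXO5. Capitals mark CHR letters (TTTGAA, or TTCAAA on the other strand) and CCAAT boxes (CCAAT, or ATTGG on the other strand).
CDC20: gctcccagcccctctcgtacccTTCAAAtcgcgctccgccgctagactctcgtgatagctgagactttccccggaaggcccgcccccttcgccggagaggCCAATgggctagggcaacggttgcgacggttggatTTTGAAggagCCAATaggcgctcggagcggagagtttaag
PTTG1: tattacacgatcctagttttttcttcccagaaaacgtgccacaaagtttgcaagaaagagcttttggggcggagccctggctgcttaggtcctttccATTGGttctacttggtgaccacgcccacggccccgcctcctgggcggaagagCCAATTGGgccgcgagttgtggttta
ESPL1: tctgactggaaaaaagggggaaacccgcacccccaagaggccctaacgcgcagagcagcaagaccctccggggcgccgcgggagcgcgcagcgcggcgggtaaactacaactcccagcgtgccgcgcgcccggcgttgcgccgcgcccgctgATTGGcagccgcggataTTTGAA
FBXO5: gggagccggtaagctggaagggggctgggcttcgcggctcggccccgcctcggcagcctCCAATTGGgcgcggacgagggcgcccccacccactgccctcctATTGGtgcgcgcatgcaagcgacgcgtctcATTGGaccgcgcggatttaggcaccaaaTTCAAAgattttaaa
CDC20 had 2 CHR matches and 2 CCAAT boxes in the 250 bases searched on both strands, ESPL1 1 of each, and FBXO5 1 CHR match and 4 CCAAT boxes at the later of its 2 listed starts and 0 of either at the other. PTTG1 had 0 CHR matches and 3 CCAAT boxes, of which 2 share letters in a stretch that reads the same on both strands, as do 2 of those of FBXO5. Of 35116 promoters in the table, 13.3% held a CHR match, 32% a CCAAT box and 4.69% both, so these letters are common and a match is a description only. Of the other genes, CDC23 held 3 CCAAT boxes and 1 E2F match (TTTCCCG or TTTGGCG on either strand, in 5.14% of promoters), UBE2S 1 CCAAT box, and FZR1 1 CHR match at one listed start and 1 E2F match at the other. UBE2C was not in the table.

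The plot of CPM in each library shows where the 8 genes stood in the 5 groups.

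**Figure D1:**
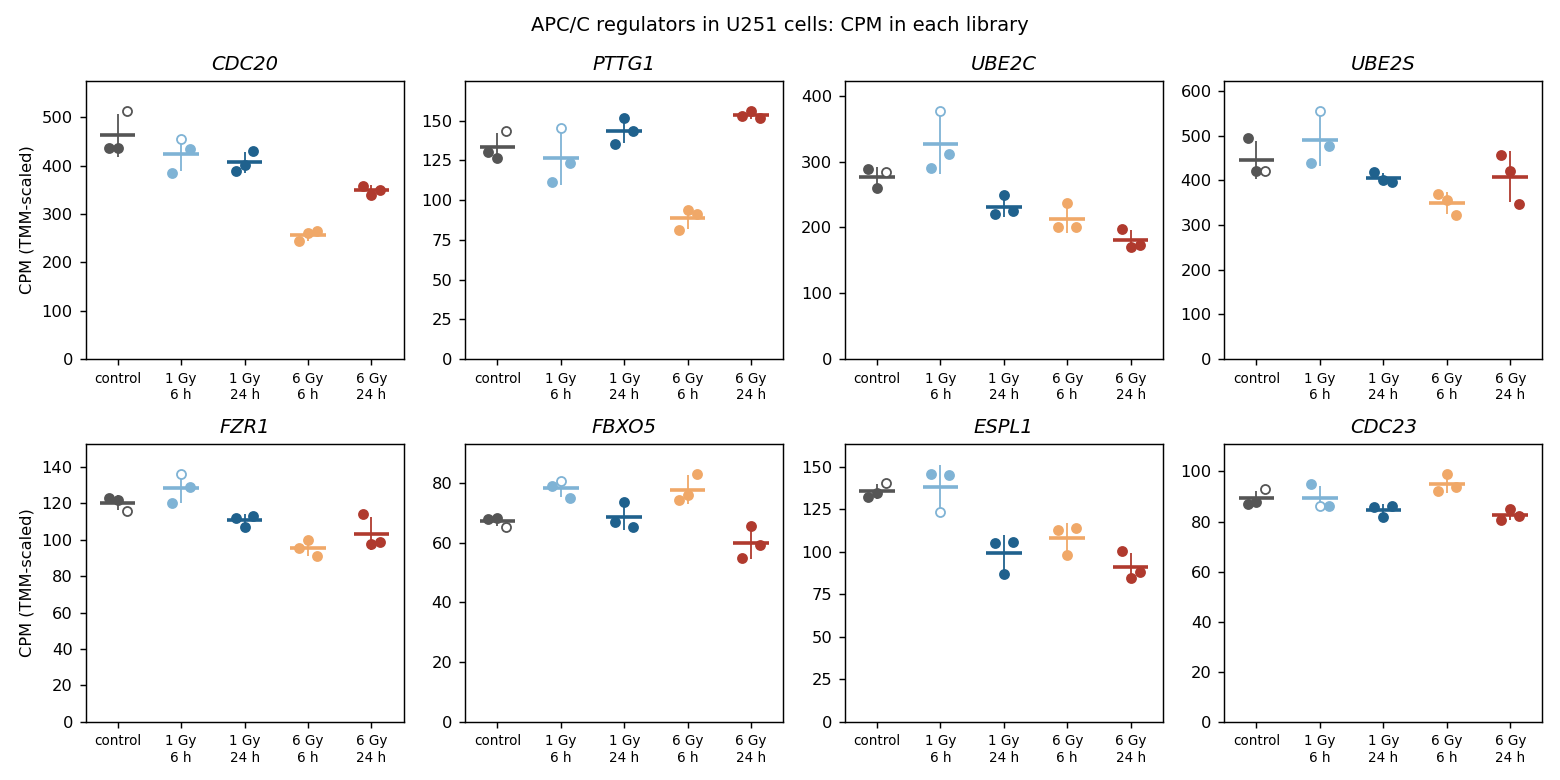
CPM (counts per 1000000 counts of the TMM-scaled library) of the 8 genes in each of 15 libraries, grouped by dose and time; horizontal bars are means and vertical bars SD of 3 libraries, and open points are the 2 libraries left out of the tests. CDC20 and PTTG1 are lowest at 6 h after 6 Gy (244 to 265 and 81.2 to 93.9 CPM), and UBE2C is lowest at 24 h after 6 Gy (171 to 198 CPM).

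CDC20, the activator of the APC/C at anaphase, had the largest fold change of the 8 genes against the control. CDC20 stood at 437, 437 and 514 CPM in the control libraries I, II and III, at 244, 260.1 and 265 CPM at 6 h after 6 Gy, and at 359, 339 and 351 CPM at 24 h after 6 Gy. After 1 Gy it stood at 384, 455 and 434 CPM at 6 h and at 389, 402 and 430 CPM at 24 h. All libraries of 6 Gy at 6 h were below every other library of the series, those of 6 Gy at 24 h came next without overlap, and the ranges of the 1 Gy groups overlapped each other. The mean at 6 h after 6 Gy was 55.4% of the control mean. CDC20 fell by 0.78 on the log2 scale at 6 h after 6 Gy (SE 0.0667, adjusted p = 6.55e-08). At 24 h after 6 Gy its log2 fold change was -0.32 (SE 0.0666, adjusted p = 0.00133), which is under the fold threshold of 0.5. After 1 Gy the changes were -0.10 at each time, with adjusted p of 0.998 at 6 h and 0.366 at 24 h. The bulk RNA cannot separate fewer cells in the phase that expresses a gene from less of its RNA per cell, for CDC20 and for the genes that follow.

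FZR1, the activator of late mitosis and G1, did not pass both thresholds in any comparison. It stood at 123, 122 and 116 CPM in the control, at 95.6, 99.96 and 91.0 CPM at 6 h after 6 Gy and at 114, 97.5 and 98.7 CPM at 24 h after 6 Gy. All libraries of both 6 Gy groups were below the lowest control, and the 6 Gy groups overlapped each other. Its log2 fold change was -0.37 (SE 0.0759, adjusted p = 0.00723) at 6 h after 6 Gy and -0.25 (SE 0.0755, adjusted p = 0.0209) at 24 h, both under the fold threshold. Without control replicate 1 the adjusted p at 6 h was 0.105, and without control replicate 2 that at 24 h was 0.117. After 1 Gy the libraries ranged from 120.2 to 136 CPM at 6 h and from 107 to 113 CPM at 24 h, with log2 fold changes of 0.02 and -0.14 that did not pass (adjusted p of 0.998 and 0.229).

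UBE2C, the enzyme that starts the chains, passed at the later time after the higher dose. It stood at 288, 259 and 283 CPM in the control, 200.2, 237 and 200.5 CPM at 6 h after 6 Gy, and 198, 171 and 173 CPM at 24 h after 6 Gy. After 1 Gy it stood at 289.8, 377 and 311 CPM at 6 h and at 220.1, 249 and 224 CPM at 24 h. The libraries of 1 Gy at 6 h were all above the control, those of the other irradiated groups were all below it, and the 6 Gy 24 h libraries were the lowest of all. UBE2C fell by 0.60 at 24 h after 6 Gy (SE 0.0832, adjusted p = 2.46e-05), to a mean of 65.2% of the control. At 6 h after 6 Gy its log2 fold change was -0.37 (SE 0.0832, adjusted p = 0.0145; -0.29 and 0.301 without control replicate 1), under the fold threshold, and after 1 Gy it was 0.13 at 6 h (adjusted p = 0.998) and -0.24 at 24 h (adjusted p = 0.0615).

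UBE2S, the enzyme that extends the chains, did not pass both thresholds in any comparison. Its control libraries stood at 495, 421 and 421 CPM, those of 6 Gy at 6 h at 369.9, 356 and 323 CPM, and those of 6 Gy at 24 h at 457, 422 and 347 CPM. The 6 h libraries were below all controls, while the 24 h libraries overlapped them and had an SD of 56.1 CPM, against 24.2 CPM at 6 h. The log2 fold change was -0.40 (SE 0.0908, adjusted p = 0.016) at 6 h and -0.17 (SE 0.0909, adjusted p = 0.197) at 24 h. Without control replicate 2, the value at 6 h was -0.50 with an adjusted p of 0.0211, just past the fold threshold, whereas without control replicate 1 it was -0.27 with an adjusted p of 0.383. After 1 Gy the libraries ranged from 439.8 to 556 CPM at 6 h and from 397 to 419 CPM at 24 h, with adjusted p of 0.998 and 0.234 against the control.

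PTTG1, the gene of securin, stood at 130.04, 126 and 143 CPM in the control, 81.2, 93.9 and 91.1 CPM at 6 h after 6 Gy, and 153, 156 and 152 CPM at 24 h after 6 Gy. All libraries of 6 Gy at 6 h were below every other library, and all of 6 Gy at 24 h were above every other library, the nearest being 1 Gy 24 h replicate 2 at 151 CPM. PTTG1 fell by 0.54 at 6 h after 6 Gy (SE 0.0753, adjusted p = 9.32e-05), and without 6 Gy 6 h replicate 1 the value was -0.48, under the fold threshold (adjusted p = 0.000877). At 24 h after 6 Gy its log2 fold change against the control was 0.26 (SE 0.0743, adjusted p = 0.0143; 0.144 without control replicate 2), also under the threshold, but it rose by 0.80 from 6 h to 24 h after 6 Gy (SE 0.0677, adjusted p = 1.77e-08), a fold of 1.74. After 1 Gy PTTG1 stood at 112, 145 and 123 CPM at 6 h and 136, 151 and 144 CPM at 24 h, and neither group passed against the control (adjusted p of 0.998 and 0.153).

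ESPL1, the gene of separase, stood at 132, 135 and 140.2 CPM in the control, at 105, 87.0 and 105 CPM at 24 h after 1 Gy, and at 100.5, 84.4 and 88.2 CPM at 24 h after 6 Gy. At 6 h it stood at 146, 123 and 145 CPM after 1 Gy and at 113, 98.1 and 114 CPM after 6 Gy. Both 24 h groups and 6 Gy at 6 h lay below all control libraries, and the 24 h groups overlapped each other. ESPL1 fell by 0.55 at 24 h after 6 Gy (SE 0.0896, adjusted p = 0.000149), and without 6 Gy 24 h replicate 2 the value was -0.50, marginally under the threshold (adjusted p = 0.000909). For 1 Gy at 24 h the log2 fold change was -0.42 (SE 0.0894, adjusted p = 0.00304), under the threshold, and at 6 h it was 0.12 after 1 Gy and -0.31 after 6 Gy (adjusted p of 0.998 and 0.0721). From 6 h to 24 h after 1 Gy it fell by 0.54 (SE 0.089, adjusted p = 0.000218), but the value was -0.46 without 1 Gy 24 h replicate 2 and -0.48 with all 15 libraries, each under the threshold.

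FBXO5, the inhibitor of the APC/C, did not pass against the control in any group. It stood at 67.9, 68.3 and 65.3 CPM in the control, 79.1, 80.6 and 75.1 CPM at 6 h after 1 Gy, and 74.3, 75.9 and 83.2 CPM at 6 h after 6 Gy. At 24 h it stood at 67.0, 73.7 and 65.2 CPM after 1 Gy and 54.8, 65.6 and 59.3 CPM after 6 Gy. All libraries of both 6 h groups lay above the control, and both 24 h groups overlapped it. The log2 fold change at 6 h after 6 Gy was 0.19, with a 95% interval of 0.01 to 0.37 and an adjusted p of 0.307, and at 24 h it was -0.19 with an interval of -0.366 to -0.00448 and an adjusted p of 0.13. From 6 h to 24 h after 6 Gy the value was -0.37 (SE 0.0777, adjusted p = 0.000852), under the fold threshold. CDC23, the subunit of the ligase, varied least: its libraries ran from 80.7 CPM at 24 h after 6 Gy to 99.2 CPM at 6 h after 6 Gy, with 87.0, 87.9 and 92.8 CPM in the control. After 1 Gy it ranged from 86.4 to 94.96 CPM at 6 h and from 81.8 to 86.2 CPM at 24 h. Its 95% intervals against the control ran from -0.03 to 0.26 at 6 h after 6 Gy and from -0.23 to 0.07 at 24 h after 6 Gy.

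Counted by comparison, few of the 8 genes passed both thresholds. At 6 h after 6 Gy 2 of 8 fell (CDC20 and PTTG1) and 0 rose, against 0.818% of all tested genes lower and 0.252% higher. Later, at 24 h, 2 of 8 fell after 6 Gy (UBE2C and ESPL1), against 2.19% lower and 5.58% higher among all genes. At 6 h after 1 Gy 0 of 8 passed by edgeR's quasi-likelihood test, by its likelihood ratio test or by DESeq2, and 0 had an unadjusted p under 0.05. The background there was 0% of genes called, with 395 genes (3.11%) at an unadjusted p under 0.05. In the 1 Gy group at 24 h 0 of 8 passed by any of these tests, and 4.42% of all genes were called. An unadjusted p under 0.05 was found there for 3 of the 8 and for 26.8% of all genes.

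More of the 8 genes lay wholly on one side of the control than passed the thresholds, as was also so among all genes. At 6 h after 6 Gy 6 of 8 genes had all 3 libraries below all 3 controls and 1 had all above, against 10.4% and 9.95% of all genes. For 6 Gy at 24 h these numbers were 5 and 1, against 20.7% and 20.9%, so the 1 gene above the control is not beyond the background. For 1 Gy at 24 h the numbers were 6 and 0, against 16.2% and 16.6%, and at 6 h after 1 Gy 0 and 2, against 4.8% and 4.78%. The median log2 fold change of the 8 genes was -0.37 at 6 h after 6 Gy and -0.22 at 24 h, where that of all genes was 0.00 each time. The comparisons with the control share its libraries and are not independent of one another.

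**Figure D2:**
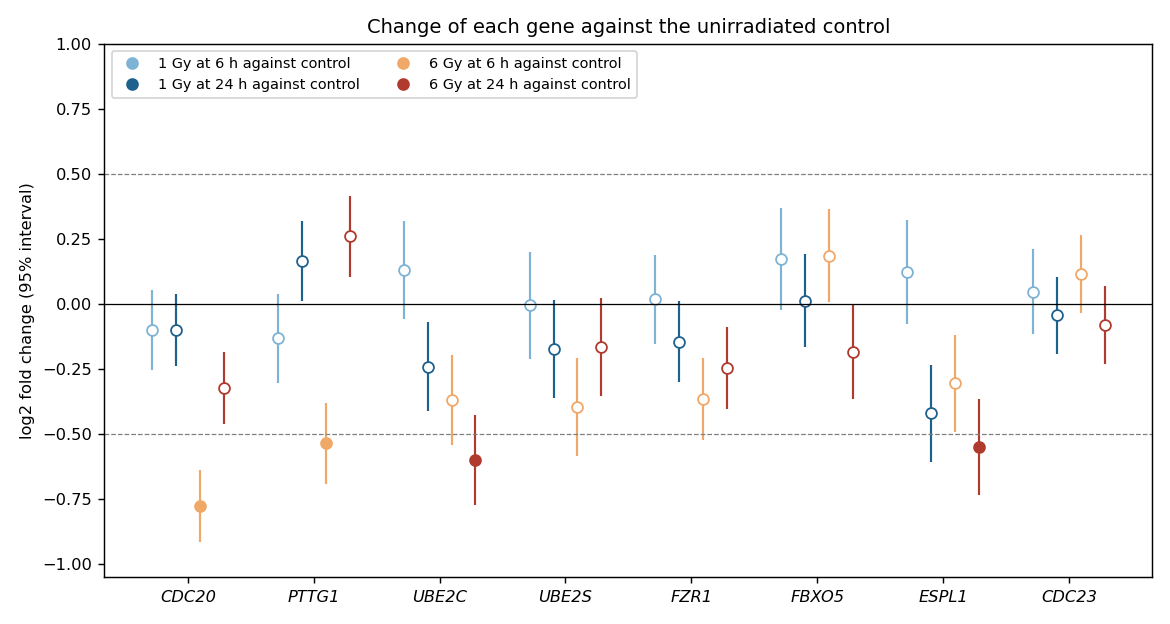
Log2 fold change of each gene against the unirradiated control with its 95% interval in the 4 irradiated groups; filled points passed an adjusted p under 0.05 and the fold threshold of 0.5, drawn as dashed lines. CDC20 (-0.78) and PTTG1 (-0.54) pass at 6 h after 6 Gy, and UBE2C (-0.60) and ESPL1 (-0.55) at 24 h after 6 Gy.

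The doses were also compared with each other at each time. CDC20 was lower by 0.68 on the log2 scale after 6 Gy than after 1 Gy at 6 h (SE 0.0669, adjusted p = 7.46e-07), the only call of the 8, where 0.566% of all genes were lower and 0.0157% higher. UBE2C missed the fold threshold in that comparison with -0.4984 (SE 0.0829, adjusted p = 0.00106). Without 1 Gy 6 h replicate 1 its value was -0.55, without 6 Gy 6 h replicate 2 -0.58, and with all 15 libraries, where PTTG1 (-0.51) passed too, -0.62. PTTG1 (-0.40), UBE2S (-0.39), FZR1 (-0.38) and ESPL1 (-0.43) had adjusted p of 0.0047, 0.0334, 0.00735 and 0.0116, under the fold threshold, while FBXO5 (0.01) and CDC23 (0.07) had adjusted p of 0.996 and 0.972. Without 1 Gy 6 h replicate 3 the adjusted p of PTTG1, UBE2S and FZR1 were 0.169, 0.319 and 0.177, and without 1 Gy 6 h replicate 1 that of ESPL1 was 0.139. At 24 h 0 of 8 passed by the quasi-likelihood test, the likelihood ratio test or DESeq2, with 0.44% of all genes called, and 3 of the 8 and 19% of all genes had an unadjusted p under 0.05. CDC20 (-0.22, adjusted p = 0.0421) and UBE2C (-0.36, adjusted p = 0.011) were nearest, and their adjusted p reached 0.144 and 0.0953 when 1 library was left out (1 Gy 24 h replicate 3 and replicate 2).

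No unirradiated cells were harvested at 6 h. Time in culture and time since irradiation therefore cannot be told apart in the comparisons of 24 h with 6 h. Over time after 6 Gy, PTTG1 rose by 0.80, the only call, where 7.57% of all genes were higher and 3.06% lower. CDC20 had a log2 fold change of 0.45 (SE 0.0607, adjusted p = 7.78e-06) and UBE2S of 0.23 (adjusted p = 0.0341), each under the fold threshold. UBE2C (-0.23), ESPL1 (-0.25), CDC23 (-0.20) and FBXO5 (-0.37) had negative values with adjusted p of 0.0215, 0.0243, 0.0217 and 0.000852. Of these values under the fold threshold, those of CDC20 and FBXO5 kept an adjusted p under 0.05 with any library left out, and the others reached 0.182 (UBE2S without 6 Gy 24 h replicate 1), 0.164 (UBE2C without 6 Gy 6 h replicate 2), 0.107 (ESPL1 without 6 Gy 6 h replicate 3) and 0.0884 (CDC23 without 6 Gy 6 h replicate 2). After 1 Gy ESPL1 was the only call, where 1.58% of all genes were lower and 3.9% higher, and PTTG1 (0.30, adjusted p = 0.009; 0.145 without 1 Gy 6 h replicate 1) and UBE2C (-0.37, adjusted p = 0.0037; 0.0549 without 1 Gy 6 h replicate 3) were under the fold threshold. The effect of 6 Gy against 1 Gy was tested for a difference between 24 h and 6 h. The difference was 0.45 for CDC20 (SE 0.0901, adjusted p = 0.0209) and 0.50 for PTTG1 (SE 0.101, adjusted p = 0.0218), where 0.385% of all genes had an adjusted p under 0.05. The adjusted p was above 0.05 for CDC20 with any of 5 of the 13 libraries left out (1 Gy 6 h replicate 3, 1 Gy 24 h replicate 2, 6 Gy 6 h replicates 1 and 2, 6 Gy 24 h replicate 3). For PTTG1 it was so with any of 6 left out (1 Gy 6 h replicate 3, 1 Gy 24 h replicate 3, 6 Gy 6 h replicates 1 and 3, 6 Gy 24 h replicates 2 and 3). Without 1 Gy 6 h replicate 3 the values were 0.36 (adjusted p = 0.131) and 0.42 (adjusted p = 0.127). For the other 6 genes the difference had adjusted p from 0.21 (UBE2S) to 0.715 (CDC23), and 5 of the 8 had an unadjusted p under 0.05, against 11.2% of all genes. With the fold threshold, 0 of the 8 passed by the quasi-likelihood test, by the likelihood ratio test or by DESeq2, against 0.291% of all genes. Both values lie near the threshold of 0.5. With all 15 libraries CDC20 had 0.51 and PTTG1 0.61, and without 1 Gy 6 h replicate 1 they had 0.54 and 0.57. PTTG1 also passed without 1 Gy 24 h replicate 2, 6 Gy 6 h replicate 2 or 6 Gy 24 h replicate 1 (0.51 to 0.54).

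Ratios of counts within a library do not depend on the scaling of the library and here serve to compare the groups. They are not corrected for transcript length, so they do not give the balance between the transcripts of partners. Per kilobase of exon, PTTG1 stood at 186 and ESPL1 at 20.5 CPM in the control. Protein was not measured, so the ratios do not give the balance of the proteins. The ratio of FBXO5 to CDC20, inhibitor to activator, was 0.127, 0.156 and 0.156 in the control libraries from lowest to highest and 0.292, 0.305 and 0.314 at 6 h after 6 Gy, and lay between 0.152 and 0.206 in the other irradiated groups. The 6 Gy 6 h libraries were above all others in that ratio. Those of 1 Gy at 6 h (0.173 to 0.206) were also above every control library, and both 24 h groups overlapped the control. The ratio of PTTG1 to ESPL1, securin to separase, was 0.939 to 1.02 in the control and 0.721 to 0.957 at 6 h after 6 Gy, and at 24 h it was 1.29 to 1.74 after the lower dose and 1.52 to 1.85 after the higher one. Both 24 h groups lay above every control library. The ratio of CDC20 to FZR1 was 3.545 to 4.44 in the control, 2.55 to 2.91 at 6 h after 6 Gy and 3.20 to 3.36 at 6 h after 1 Gy, so both 6 h groups lay below every control library. At 24 h it overlapped the control after either dose, with 3.48 to 3.80 after 1 Gy and 3.14 to 3.554 after 6 Gy. The ratio of UBE2C to UBE2S was 0.581 to 0.673 in the control and 0.405 to 0.499 at 24 h after 6 Gy, without overlap, and the ranges of the other irradiated groups overlapped the control. These ratios were read from the genes' own levels and were not tested.

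**Figure D3:**
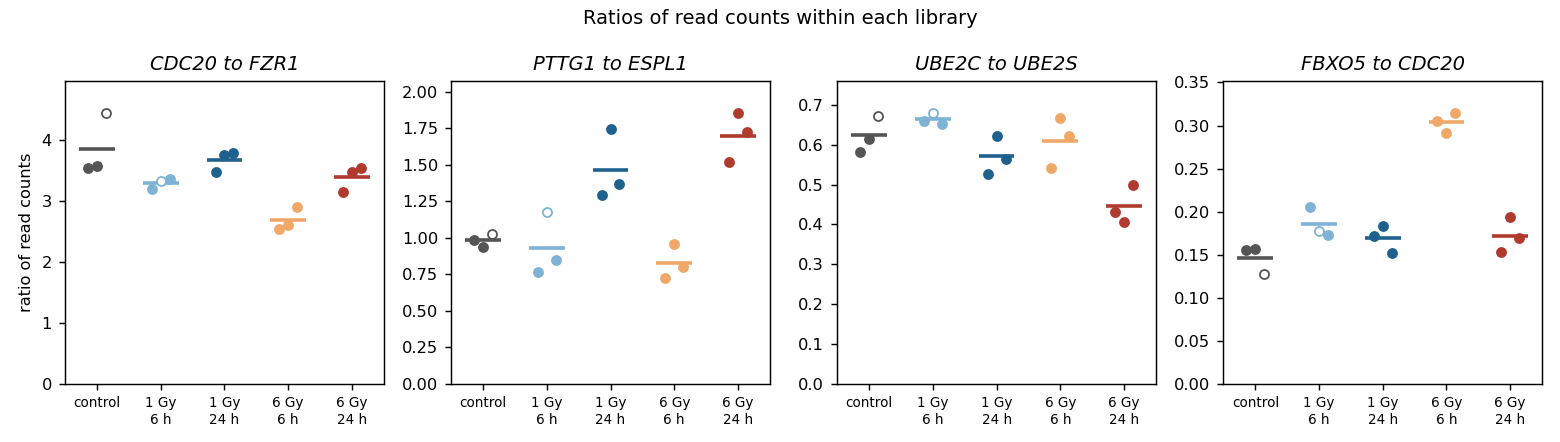
Ratio of the read counts of pairs of genes in each of 15 libraries; bars are group means and open points the 2 libraries left out of the tests. The ratio of FBXO5 to CDC20 is highest at 6 h after 6 Gy (0.292 to 0.314), and the ratio of PTTG1 to ESPL1 is highest at 24 h after 6 Gy (1.52 to 1.85).

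The constant subunits build the ligase that CDC20 and FZR1 activate. Of 14 core subunits, CDC23 included, 0 passed in any of the 9 comparisons by the quasi-likelihood test, the likelihood ratio test or DESeq2, with 1 to 3 at an unadjusted p under 0.05 in each. At any fold 0 to 2 of the 14 had an adjusted p under 0.05 in each comparison by the quasi-likelihood test. The median log2 fold change of the 14 was 0.06 at 6 h after 6 Gy and -0.08 at 24 h. CDC27 had the most negative values, -0.40 (adjusted p = 0.0049) and -0.34 (adjusted p = 0.00315), under the fold threshold. Of 6 tested ubiquitin-linked enzymes that work with the ligase, 0 passed in any comparison by these tests. At most 3 had an unadjusted p under 0.05. The share of all genes called ran from 0% at 6 h after 1 Gy to 10.6% from 6 h to 24 h after 6 Gy. Both 0 of 14 and 0 of 6 are near that background.

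Upstream and downstream of the ligase, genes of the spindle checkpoint and of its substrates passed after 6 Gy. Of 12 genes around the spindle assembly checkpoint, which holds CDC20 inactive until chromosomes attach, 3 fell at 6 h after 6 Gy. They were TTK (-0.76, adjusted p = 1.87e-06), BUB1 (-0.64) and BUB1B (-0.60), where 0.818% of all genes were lower. At 24 h 5 fell, where 2.19% of all genes were lower. The number of these genes that fell was 2 with library totals and 3 with upper quartile scaling. Of 34 APC/C substrates 15 fell and 0 rose at 6 h after 6 Gy, where 0.818% of all genes were lower and 0.252% higher. CCNB1, the cyclin whose removal ends mitosis, stood at 514, 532 and 581 CPM in the control from lowest to highest and at 181, 200.2 and 218 CPM at 6 h after 6 Gy (log2 fold change -1.39, adjusted p = 3.77e-11). Its libraries did not overlap, as was the case for the mitotic kinases AURKA (-1.27) and PLK1 (-1.24). At 24 h 8 of the substrates fell, among them ANLN (-0.73) and PLK1 (-0.67), where 2.19% of all genes were lower. From 6 h to 24 h after 6 Gy 6 rose and 2 fell, where 7.57% of all genes were higher and 3.06% lower. CCNB1 was among those that rose, by 0.90, and RRM2, a subunit of ribonucleotide reductase, among those that fell, with -0.56.

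Of 36 genes of G2 and mitosis outside the 8, 18 are also substrates in the list above. TTK, BUB1 and BUB1B, the 3 checkpoint genes that fell at 6 h, are in this list too, so those calls are counted again here. Of the 36 genes 25 fell at 6 h after 6 Gy and 16 at 24 h, and 0 rose, against 0.818% and 2.19% of all genes lower. The median log2 fold change of the 36 was -0.65 and -0.49, against -0.37 and -0.22 for the 8 genes. KIF20A, a kinesin of cytokinesis, fell by 1.602 on the log2 scale, from 242 to 256 CPM in the control to 81.2 to 84.4 CPM. After 1 Gy 0 of the 36 passed at 6 h or at 24 h by the quasi-likelihood test, the likelihood ratio test or DESeq2. Of all genes 0% and 4.42% were called there. An unadjusted p under 0.05 was found for 4 and 23 of the 36, against 3.11% and 26.8% of all genes. Of 28 genes of G1/S and replication, 2 rose at 6 h after 6 Gy, CDT1 by 0.58 and CLSPN by 0.51 (4 with upper quartile scaling). At 24 h 2 rose, E2F2 by 0.76 and CCNE1 by 0.59. Among all genes 0.252% were higher at 6 h and 5.58% at 24 h, so the 2 that rose at 24 h are near the background. At any fold, 20 of the 28 had an adjusted p under 0.05 at 6 h by the quasi-likelihood test, against 2.88% of all genes. Their list's values ran from 0.07 to 0.58. At 24 h 17 of the 28 did, against 23.6%, with values of the list from -0.50 to 0.76. The median log2 fold changes of the 28 were 0.31 and 0.21.

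Partners of FBXO5 and ESPL1 and factors that control mitotic genes gave 1 or 2 calls in each list at either time after 6 Gy against the control. Among all genes 0.818% were lower at 6 h and 2.19% at 24 h after 6 Gy. Of 7 relatives of FBXO5 and parts of the SCF ligase, which removes FBXO5, CCNF fell by 0.61 at 6 h and by 0.73 at 24 h after 6 Gy. Of 13 genes of cohesin and its protection SGOL2, which guards cohesin from separase, fell by 0.64 and 0.65, and STAG1, a cohesin subunit, by 0.65 at 24 h. Of 15 genes of the factors that control mitotic genes, with CENPA in the same list, 2 fell at 6 h after 6 Gy: E2F5 by 0.98 and CENPA, a centromeric histone, by 0.93. At 24 h after 6 Gy E2F5 was the only call of that list, with -0.63. FOXM1, an activator of mitotic genes, had log2 fold changes of -0.08 and 0.08 after 6 Gy (adjusted p of 0.665 and 0.455). FOXM1 and CDC27 were named after their values were seen.

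**Figure D4:**
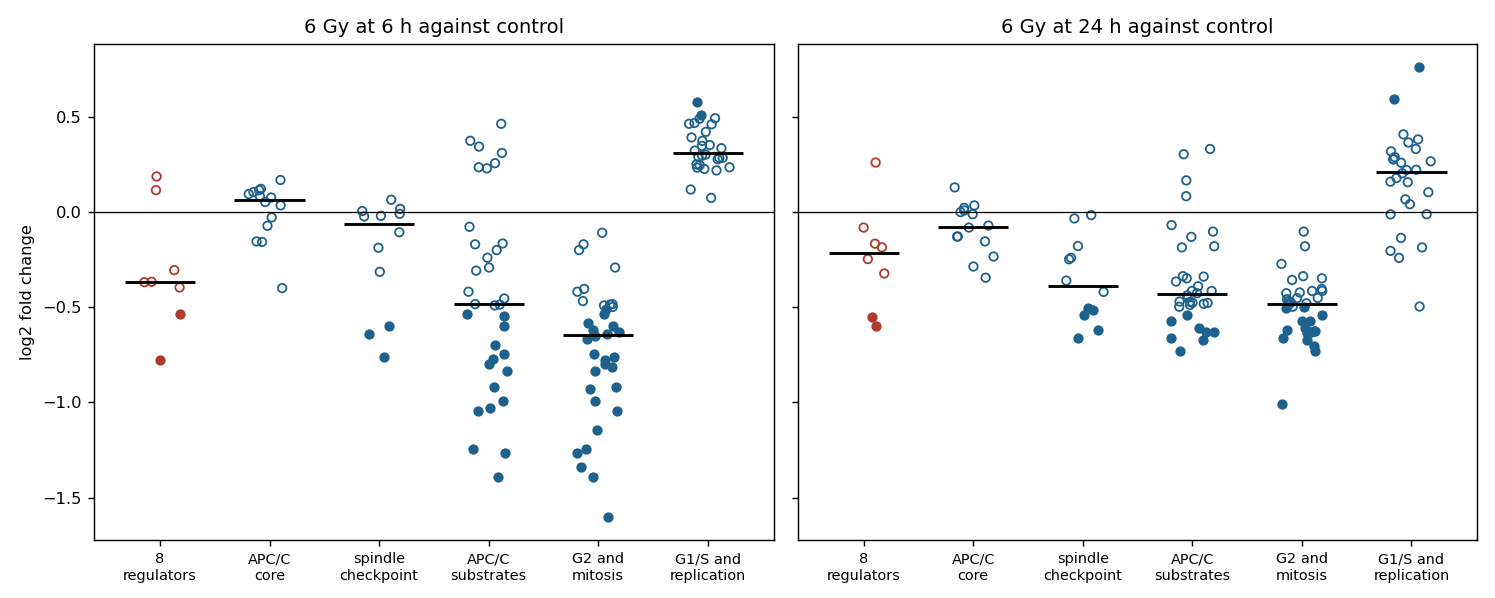
Log2 fold change of every tested gene of 6 lists at 6 h (left) and 24 h (right) after 6 Gy against the control; filled points passed both thresholds, open points did not, and bars are medians. The 14 core subunits have 0 filled points at either time, near the share of all genes called (1.07% and 7.77%). The 36 genes of G2 and mitosis have 25 and 16, all below 0.

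Across the 13 libraries of the tests, the genes whose log2 CPM was most like that of a member were looked for among 10474 genes with a mean of at least 5 CPM. All points share their libraries and groups, so the correlations describe the pattern only. Closest to CDC20 were CCNB1 (Pearson r 0.986), PIF1 (0.981) and AURKA (0.974). Closest to PTTG1 were SLC35D2 (0.974), CDK19 (0.961) and DZIP3 (0.957), and closest to FZR1 were ARHGAP22 (0.945), TACC3 (0.926) and GTSE1 (0.921). UBE2C was closest to MXD3 (0.94), ESPL1 to CDC42SE1 (0.908), FBXO5 to GINS1 (0.955), UBE2S to TFAP2A (0.891) and CDC23 to C9orf72 (0.943). Among the 8 genes, r was 0.72 between CDC20 and PTTG1, 0.845 between CDC20 and FZR1, 0.854 between UBE2S and FZR1, and -0.862 between PTTG1 and CDC23.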

How the data were processed

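RNA-seq of U251 cells covered 15 poly(A) libraries, and only the raw counts were used. The authors aligned the reads with TopHat (hg19) and counted them per gene with HTSeq to make the deposited counts, and the version of neither is given in the sources used here. A second table, with values per library that the authors scaled for 13 libraries and the authors' own fold changes, p-values and calls, was not used. The test was run with edgeR 4.0.16 in R 4.3.3: filterByExpr (minimum count 10, total 15), TMM scaling, a quasi-likelihood fit over 5 groups with 8 residual and 13.5 prior degrees of freedom, and Benjamini-Hochberg adjustment over 12719 genes in each of 9 comparisons. A gene passed, and is said to rise or fall, at an adjusted p under 0.05 with a log2 fold change beyond 0.5 in either direction. The fit gave a biological coefficient of variation of 6.26%. The SE is the fold change divided by the square root of F.

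Group levels are CPM of the 15 libraries scaled together by TMM. Lengths are exons of the MANE transcript within the table's gene span (GENCODE v44lift37). Each of the 8 genes is named in each comparison. From each pathway list up to 4 called genes with the lowest adjusted p could be named, as could the 3 genes most correlated with each of the 8. The 8 genes and the lists were chosen with earlier results of these data known. Promoters come from RefSeq, whose table matched 7 of the 8 genes. Alternatives were all 15 libraries, RLE, library total and upper quartile scaling, other filters, DESeq2 1.42.0, edgeR's likelihood ratio test, a replicate block, fits of the compared groups alone, other thresholds and each library left out. The steps were tested on simulated data. Figures were drawn with matplotlib 3.10.9 in Python 3.11.15.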

Additional observations from a re-analysis of the deposited data

Results flagged for a closer look

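The effect of 6 Gy against 1 Gy was tested for a difference between 24 h and 6 h (edgeR's quasi-likelihood test), and the adjusted p was under 0.05 for 2 of the 8 genes and for 7 genes named from the lists. Values are on the log2 scale, 24 h minus 6 h. CDC20 had 0.45 (adjusted p = 0.0209) and PTTG1 0.50 (adjusted p = 0.0218): the higher dose against the lower gave -0.68 and -0.40 at 6 h, and -0.22 and 0.09 at 24 h. Neither adjusted p held when single libraries were left out: it was above 0.05 for CDC20 in 5 of 13 such fits and for PTTG1 in 6 of 13, and without 1 Gy 6 h replicate 3 the values were 0.36 (adjusted p = 0.131) and 0.42 (adjusted p = 0.127). Among the list genes the values were 1.09 for KIF20A (adjusted p = 3.36e-07), 0.83 for CCNB1 (adjusted p = 0.000147), 0.79 for AURKA (adjusted p = 4.82e-05) and 0.71 for PLK1 (adjusted p = 0.000111). CENPA had 0.70 (adjusted p = 0.00588), CCNB2 0.59 (adjusted p = 0.00311) and RRM2 -0.34 (adjusted p = 0.0423). For RRM2 the adjusted p was above 0.05 with any of the 13 libraries left out (up to 0.167 without 1 Gy 6 h replicate 1), and for CENPA it was 0.0569 without 1 Gy 6 h replicate 3. The other 5 list genes kept an adjusted p under 0.05 in each of the 13 fits.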

How the results depend on the processing

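CDC20 at 6 h after 6 Gy, against the control and against 1 Gy, passed under all 10 alternative fits and with each of 13 libraries left out. The same held for UBE2C at 24 h after 6 Gy and PTTG1 from 6 h to 24 h after 6 Gy. With no fold threshold the number of the 8 genes called was 1 at 24 h after 1 Gy, 5 for 6 Gy at either time, 6 and 2 for 6 Gy against 1 Gy at 6 h and 24 h, 3 and 7 for 24 h against 6 h after 1 Gy and 6 Gy, and 2 for the difference of the dose effect between times. The shares of all genes in these comparisons, in the same order, were 12.1%, 2.88% at 6 h and 23.6% at 24 h, 1.05% and 3.66%, 15.9% and 34.4%, and 0.385%, so that 1 of 8 at 24 h after 1 Gy is near the background. Of the 24 member values with an adjusted p under 0.05 that missed the fold threshold, 19 had one above 0.05 with some library left out and 12 under another fit, against 0 of the 7 that passed both thresholds. With a threshold of 1 on the log2 scale it was 0 in each of the 5 comparisons that had calls. With all 15 libraries it was 3 for 6 Gy against 1 Gy at 6 h, 0 for 24 h against 6 h after 1 Gy and 2 for the dose effect between times, and with library totals 1 for the last. With 1 library left out it ranged from 1 to 3 at 6 h after 6 Gy, 1 to 2 at 24 h after 6 Gy, 1 to 2 for 6 Gy against 1 Gy at 6 h, 0 to 1 for 24 h against 6 h after 1 Gy and 0 to 2 for the dose effect between times. UBE2S at 6 h after 1 Gy changed sign with a value beyond its SE, 0.14 in place of -0.01 using all 15 libraries. So did CDC20 from 6 h to 24 h after 1 Gy, which ranged from -0.086 to 0.088 with 1 library left out. Other values changed sign within their SE, among them FZR1 at 6 h after 1 Gy (-0.036 to 0.069 with 1 library left out). The cause was not tested.

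The labels give no more than a replicate number, and of 30 correlations between deviations of libraries with the same number 14 were above 0.1 (range -0.144 to 0.353), so the block was kept as an alternative. That 12 of 15 libraries correlated best with their own number is a hint from the data, not from the design. With the replicate block the number called was 2 for 6 Gy against 1 Gy at 6 h (UBE2C, -0.52, added), 0 for 24 h against 6 h after 1 Gy (ESPL1, -0.50) and 1 for the dose effect between times (PTTG1, 0.52). With control replicate 3 and 1 Gy 6 h replicate 2 out, those groups had 2 libraries each. At these depths the 8 genes had at least 540 counts a library, and p-values cover only the spread between cultures of this line.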
